A study of Mus musculus with 4 samples.

Results

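Expression of 8 transcription factor genes of the endoderm and of Ttr was examined in P19 cells, which are embryonal carcinoma cells of the mouse. The factors were Gata4, Gata6, Sox7, Sox17, Foxa1, Foxa2, Foxa3 and Hnf4a. The genes were chosen with earlier results of these data known, and were found by symbol in the probe annotation of the array. Each of the 9 was represented by 1 probe set among 41345. Shares of all genes printed beside counts of the 9 are therefore given for scale and test no enrichment. There were 4 arrays, 1 per condition: Ctcfl-line cells in retinoic acid, Ctcfl-line cells left undifferentiated, wild-type cells in retinoic acid, and wild-type cells left undifferentiated. Retinoic acid was given at 10 µM for 4 days, and undifferentiated cells received ethanol as vehicle. The Ctcfl line was a P19 clone with stably integrated pBI-EGFP-FLAG-mCtcfl and pTA-N vectors. Its Tet-Off system holds Ctcfl, a testis paralog of the insulator protein Ctcf, silent in doxycycline, and this drug had been withdrawn for 2 days before RNA was taken. For wild-type cells the labels conflict, naming ordinary medium in one field and 2 µg/ml doxycycline in another. Differences between the lines are therefore those of clone, vectors, drug and Ctcfl together, which cannot be told apart.

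Endoderm is the germ layer of gut, liver and lung, and primitive endoderm is the earlier lineage that lines the yolk sac. GATA6 and GATA4 are zinc finger factors near the top of the primitive endoderm programme, and SOX17 and SOX7 are related high mobility group factors that act with them. FOXA proteins are forkhead factors that open closed chromatin in definitive endoderm, and FOXA1 and FOXA2 also act in the floor plate of the neural tube. HNF4A is a nuclear receptor of visceral endoderm and liver. TTR, the carrier of thyroxine and of the retinol-binding protein, is a secreted product of visceral endoderm, liver and choroid plexus. Retinoic acid turns F9 cells, another mouse embryonal carcinoma line, into primitive endoderm.

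Values are log2 signals after robust multi-array averaging (RMA), so that a difference of 1 is a 2-fold difference. A signal that does not change can still be partly background. As a guide, olfactory receptor genes, which these cells are not known to use, had medians between log2 4.70 and 4.79 on the 4 arrays. The lowest signal of any of the 9 genes was log2 6.78, for Sox17, and all 9 genes were among the 18310 whose highest signal was at least log2 6. Of the olfactory receptor genes 21.9% passed this filter too, so passing it does not show expression. The share of the 1088 olfactory receptor genes with a signal as high as that of Sox17 was between 3.77% and 5.61% on the 4 arrays. Ctcfl had log2 signals of 9.56 and 10.41 in Ctcfl-line cells with and without retinoic acid, against 7.13 and 7.86 in wild-type cells. Pou5f1, a pluripotency factor that marks undifferentiated P19 cells, stood at log2 8.14 in retinoic acid and 10.03 without it in the Ctcfl line, and at 8.10 and 9.37 in wild-type cells. With 1 array per condition there was no biological replicate, and precision is limited by the number of arrays. The one spread that single arrays give is between probe sets of the same gene, here called the technical SD. For the retinoic acid differences it was log2 0.331 in the Ctcfl line and 0.303 in wild-type cells, from 874 genes. The probe sets share the same arrays, so error common to an array is not in it. It is therefore a partial guide and not the error of a comparison between arrays.

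The first comparison asks what retinoic acid did to these genes in each line. Gata6 and Foxa1 rose, with differences among the 51 highest on the arrays in either line, whereas the other 7 genes did not pass the test. Among all 18310 genes, the retinoic acid difference of Gata6 ranked 27 from the highest in the Ctcfl line and 17 in wild-type cells, and that of Foxa1 ranked 51 and 13. At least 2-fold higher in retinoic acid were 2 of the 9 genes in the Ctcfl line, where 3.21% of all genes were, and 3 of 9 in wild-type cells, where 2.58% of all genes were. None of the 9 was at least 2-fold lower in either line, against 1.5% of all genes in the Ctcfl line and 2.62% in wild-type cells. Because the arrays measure whole cultures, more cells with a transcript and more transcript per cell cannot be told apart.

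Gata6 had a log2 signal of 10.08 in retinoic acid and 7.23 without it in the Ctcfl line, and 11.24 in retinoic acid and 7.93 without it in wild-type cells. Both retinoic acid arrays thus lay above both undifferentiated arrays, but the share of all genes with this order was not counted. The differences were log2 2.85 in the Ctcfl line and 3.31, or 9.95-fold, in wild-type cells. Averaged over the lines in limma, its rise was 8.47-fold (log2 3.08 ± 0.17, SE, adjusted p = 0.000608, higher in 2 of 2 lines). This test fits retinoic acid and line as additive terms over all 18310 genes and adjusts by the Benjamini-Hochberg method. It takes the unequal response of the lines as its error, with 1 residual degree of freedom per gene. Each SE combines this with a prior spread drawn from all genes, which at 5.49 degrees of freedom has the larger weight. In this test 4.21% of all genes rose and 2.44% fell.

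Gata4, the closest relative of Gata6 among the 9, differed little between the arrays. Its log2 signals were 7.47 in retinoic acid and 7.63 without it in the Ctcfl line, and 7.80 in retinoic acid and 7.59 without it in wild-type cells. The range over the 4 arrays was log2 0.32, against 4.01 for Gata6, and the retinoic acid effect was log2 0.03 ± 0.16 (SE, adjusted p = 0.942 in limma). On chromosome 14 (GRCm38.p6) 6 protein-coding genes lie between Gata4 and Sox7, while Gata6 shares chromosome 18 with Ttr, with 30 protein-coding genes between them.

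The forkhead gene Foxa1 had a log2 signal of 10.03 in retinoic acid and 7.55 without it in the Ctcfl line, and 10.88 in retinoic acid and 7.40 without it in wild-type cells. As for Gata6, both retinoic acid arrays lay above both undifferentiated ones, an order that is no test by itself. With retinoic acid Foxa1 was higher by log2 2.49 in the Ctcfl line and 11.2-fold higher in wild-type cells. In limma its rise over both lines was 7.92-fold (log2 2.99 ± 0.24, SE, adjusted p = 0.00199, higher in 2 of 2 lines).

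Its paralogs did not pass the same test. Foxa2 had log2 signals of 8.44 in retinoic acid and 8.23 without it in the Ctcfl line, and 8.77 in retinoic acid and 8.21 without it in wild-type cells, and its effect of log2 0.38 ± 0.16 (SE) did not pass (adjusted p = 0.22 in limma). Foxa3, which acts mainly in liver and gut, had 7.72 in retinoic acid and 8.05 without it in the Ctcfl line, and 7.49 in retinoic acid and 7.90 without it in wild-type cells. Its retinoic acid arrays were the lower of each pair, by log2 0.34 and 0.41, and the effect of log2 -0.37 ± 0.15 (SE) did not pass (adjusted p = 0.192 in limma).

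The RefSeq promoter table (GRCm38.p6) held 4 of the 9 genes, Foxa1, Foxa2, Foxa3 and Hnf4a, with 7 start sites. The 250 bases before a start site are shown for the 3 Foxa genes, since 1 of these paralogs rose and the others did not pass. For Foxa2, which has 3 start sites in the table, the window shown is the one of the 3 that held a match. All 3 genes lie on the minus strand, sequences run 5′ to 3′ along the gene, and capitals mark the motif matches.
Foxa1 chr12:57546112-57546361: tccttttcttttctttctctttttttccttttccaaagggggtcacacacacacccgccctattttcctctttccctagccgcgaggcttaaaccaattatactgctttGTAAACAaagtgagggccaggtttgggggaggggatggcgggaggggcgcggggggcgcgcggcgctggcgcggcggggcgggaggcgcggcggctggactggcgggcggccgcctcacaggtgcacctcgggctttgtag
Foxa2 chr2:148045465-148045714: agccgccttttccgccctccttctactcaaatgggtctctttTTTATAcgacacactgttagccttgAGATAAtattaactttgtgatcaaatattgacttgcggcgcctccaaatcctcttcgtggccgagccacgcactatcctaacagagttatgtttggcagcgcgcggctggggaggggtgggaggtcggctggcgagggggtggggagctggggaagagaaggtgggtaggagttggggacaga
Foxa3 chr7:19023540-19023789: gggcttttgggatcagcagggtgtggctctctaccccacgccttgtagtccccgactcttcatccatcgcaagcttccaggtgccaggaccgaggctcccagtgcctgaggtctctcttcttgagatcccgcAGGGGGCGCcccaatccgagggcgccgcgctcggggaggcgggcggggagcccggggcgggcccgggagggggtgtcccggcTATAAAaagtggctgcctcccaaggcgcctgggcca

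Motifs were searched on both strands, and their shares are of 32851 windows of the same length. The Foxa1 window held 1 forkhead motif, TGTTTAC, on the opposite strand (3.17% of windows). In Foxa2 there were a GATA motif, AGATAA, on the strand of the gene (9.99% of windows) and a TATA box, TATAAA, on the opposite strand (12.4%). Foxa3 held TATAAA on its own strand, with the first base 36 bases before the start. Of the Hnf4a windows, 1 of 2 held AGATAA. Foxa3 also held the CTCF core AGGGGGCGC on its own strand (1.11% of windows), a form chosen after the windows had been seen. None of the 7 windows matched TGATAA (7.94% of windows), the other forkhead form TGTTTGC (4.3%), the HNF4 motif CAAAGTCCA (0.384%) or the retinoic acid receptor half-site AGGTCA (14%). They also lacked the direct repeat of AGGTCA with 5 bases between (0.00913%) and that of GGTTCA (0.00304%). A match or its absence describes the letters of these windows and says nothing of binding.

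**Figure D1:**
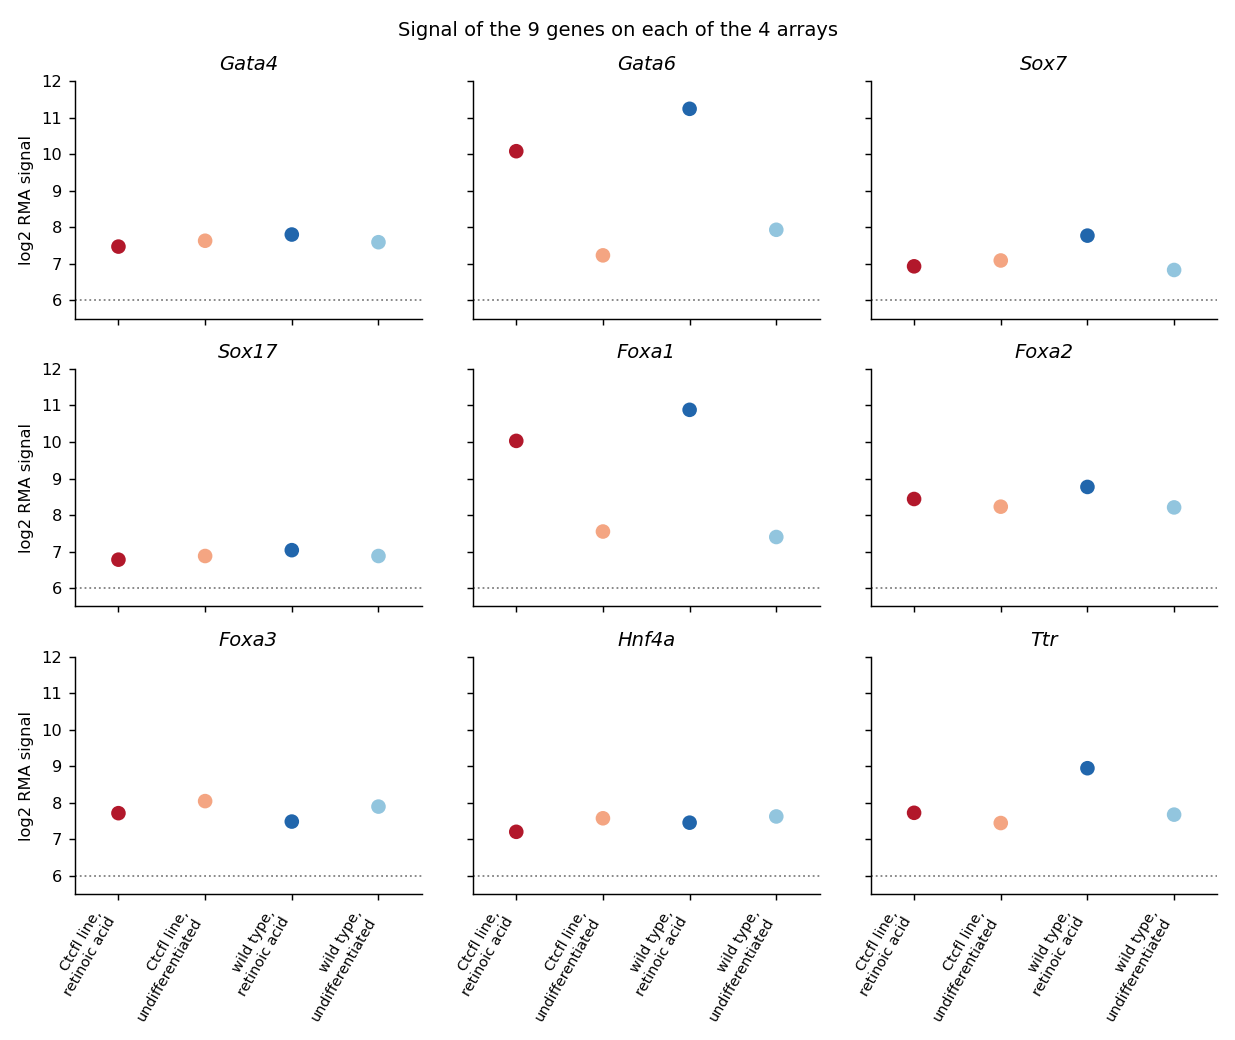
Log2 RMA signal (vertical axis) of each of the 9 genes on each of the 4 arrays (horizontal axis), 1 point per array; the dotted line is the filter at log2 6. Gata6 and Foxa1 are above 10 on both retinoic acid arrays and below 8 on both undifferentiated arrays, Sox7 and Ttr are highest on the wild-type retinoic acid array, and the other 5 genes span less than 0.6.

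Sox17 and Hnf4a, the factors of definitive and visceral endoderm, also differed little between the arrays. Sox17 had log2 signals of 6.78 in retinoic acid and 6.88 without it in the Ctcfl line, and 7.04 in retinoic acid and 6.88 without it in wild-type cells. Its whole range of log2 0.26 was below the technical SD of either retinoic acid difference. Hnf4a had 7.21 in retinoic acid and 7.58 without it in the Ctcfl line, and 7.46 in retinoic acid and 7.63 without it in wild-type cells. In limma neither passed for retinoic acid, with log2 0.03 ± 0.15 (SE, adjusted p = 0.936) for Sox17 and -0.27 ± 0.15 (SE, adjusted p = 0.339) for Hnf4a.

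Sox7 and Ttr stood high on 1 array, that of wild-type cells in retinoic acid. Sox7 had log2 signals of 6.93 in retinoic acid and 7.09 without it in the Ctcfl line, and 7.77 in retinoic acid and 6.83 without it in wild-type cells, a difference of log2 0.94 in wild type that is just under 2-fold. Ttr had 7.73 in retinoic acid and 7.45 without it in the Ctcfl line, and 8.95 in retinoic acid and 7.68 without it in wild-type cells. With retinoic acid Ttr was thus higher by log2 0.29, less than the technical SD, in the Ctcfl line, and 2.41-fold higher in wild-type cells. Averaged over the lines, Ttr had an effect of log2 0.78 ± 0.24 (SE, adjusted p = 0.12 in limma) and Sox7 of 0.39 ± 0.26 (SE, adjusted p = 0.416), and neither passed. At an unadjusted p of 0.05, 4 of the 9 genes passed for retinoic acid, Gata6, Foxa1, Ttr and Foxa3, beside 23.5% of all genes.

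**Figure D2:**
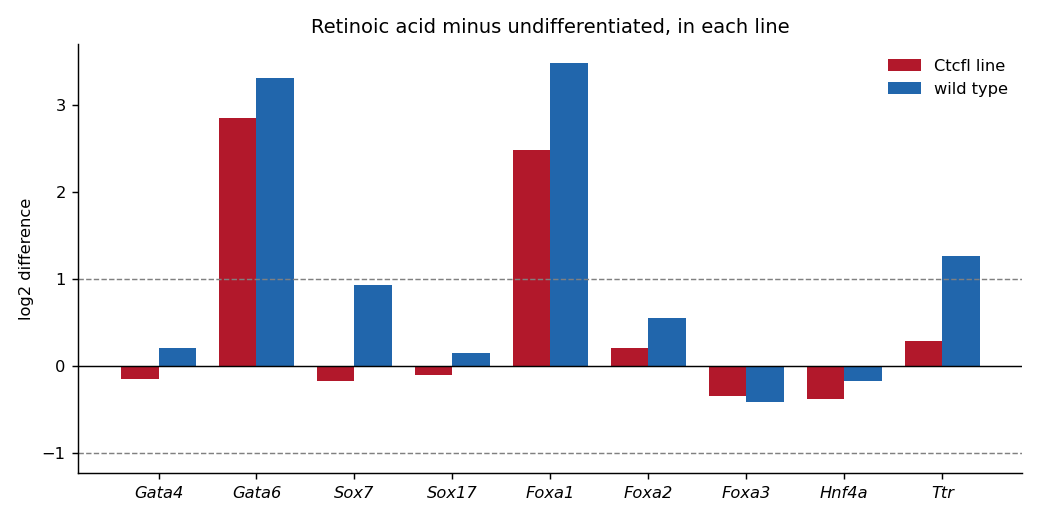
Log2 difference, retinoic acid minus undifferentiated (vertical axis), of each of the 9 genes in the Ctcfl line and in wild-type cells, with 1 array per condition and no error bars; dashed lines mark 2-fold. Gata6 and Foxa1 are past 2-fold in both lines, Ttr at 1.27 in wild-type cells only, and Sox7 at 0.94 stops just short of the line.

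The next comparison sets the Ctcfl line against wild-type cells in each state. In retinoic acid, 2 of the 9 genes, Ttr and Gata6, lay 2-fold or more below wild type, beside 0.399% of all genes, and 0 lay 2-fold or more above it, beside 0.83%. Ttr was 2.32-fold lower (log2 7.73 in the Ctcfl line, 8.95 in wild-type cells) and ranked 48 from the lowest of the 18310 genes. Gata6 was 2.23-fold lower (log2 10.08 in the Ctcfl line, 11.24 in wild-type cells) and ranked 54. Foxa1 and Sox7 were each 1.80-fold lower, at ranks 111 and 112. Thus the 4 genes with the largest retinoic acid differences in wild-type cells were also the 4 whose signal in the Ctcfl line was furthest below that in wild type, and both sets of differences contain the same wild-type array in retinoic acid.

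The remaining factors lay closer to wild type in retinoic acid. Foxa2, Gata4, Sox17 and Hnf4a were lower in the Ctcfl line by log2 0.33, 0.32, 0.26 and 0.25, and Foxa3 was higher by log2 0.23. In all, 8 of the 9 genes were below wild type, where 9861 of the 18310 genes were, and the median was log2 -0.33 for the 9 genes and -0.02 for all genes. Probe sets of the same gene differed here with an SD of log2 0.226, and 36.9% of all genes differed by more than that. All 9 genes did, Foxa3, Hnf4a and Sox17 narrowly, and the differences of Foxa3, Hnf4a and Sox17 were within the SD over all genes of log2 0.315. This technical SD does not hold the spread between separate cultures. On the same arrays Nanog, a pluripotency factor, was at log2 10.05 in the Ctcfl line and 8.47 in wild-type cells, the Nodal coreceptor gene Tdgf1 at 6.76 and 6.09, and Pou5f1 at 8.14 and 8.10. Tshz1, with the largest retinoic acid difference in both lines, was at log2 11.48 in the Ctcfl line and 11.56 in wild-type cells. Hoxa5, which also rose strongly, was at 11.15 and 10.98. Whether the higher Nanog and Tdgf1 signals have a part in the lower signals of 8 of the 9 genes was not tested.

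In undifferentiated cells the lines were close. The line difference was between log2 -0.23 and 0.26 for 8 genes, and 7 of the 9 lay within the technical SD of log2 0.262, which 35.8% of all genes exceeded. Gata6 was furthest apart, with 7.23 in the Ctcfl line and 7.93 in wild-type cells, or 1.62-fold lower. Sox7, higher in the Ctcfl line by log2 0.26, was only just beyond the technical SD. None of the 9 was at least 2-fold apart, beside 0.726% of all genes higher and 1.09% lower, and the median was log2 0.02.

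Averaged over the states, 0 of the 9 genes changed with the line in limma, in which 0.0273% of all genes rose and 0.0164% fell, and 2 of the 9 passed an unadjusted p of 0.05, beside 9.81% of all genes. These were Gata6 (log2 -0.93 ± 0.17, SE, adjusted p = 0.25, lower in 2 of 2 states) and Ttr (log2 -0.72 ± 0.24, SE, adjusted p = 0.431, lower in 2 of 2 states).

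**Figure D3:**
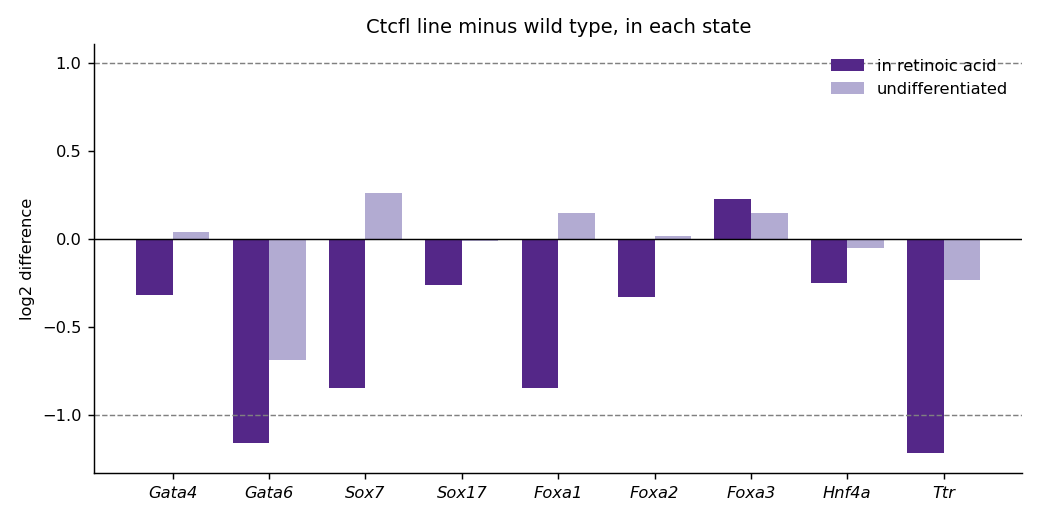
Log2 difference, Ctcfl line minus wild type (vertical axis), of each of the 9 genes in retinoic acid and in undifferentiated cells, with 1 array per condition and no error bars; dashed lines mark 2-fold. In retinoic acid 8 bars point down, with Ttr (-1.22) and Gata6 (-1.16) past 2-fold, and in undifferentiated cells Gata6 (-0.69) is the one gene far from 0.

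The last comparison is the difference of the retinoic acid differences, Ctcfl line minus wild type. Sox7 had the lowest value, log2 -1.11 (rank 108 from the lowest of 18310), and was the 1 gene of the 9 at least 2-fold lower, beside 0.754% of all genes. Foxa1 and Ttr followed at log2 -0.997, just short of 2-fold, and -0.98, with ranks of 143 and 156. Gata6, with the largest response averaged over the lines, had a difference of log2 -0.46, Gata4 of -0.36, Foxa2 of -0.35, Sox17 of -0.25, Hnf4a of -0.20 and Foxa3 of 0.08. None of the 9 was at least 2-fold higher, beside 1.9% of all genes. The median was log2 -0.36 for the 9 genes and -0.01 for all genes, and probe sets of the same gene differed with an SD of log2 0.321. With 4 arrays this difference has no test.

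Genes with the most similar pattern were sought for the 3 members that spanned at least log2 1 over the 4 arrays, Gata6, Foxa1 and Ttr. Likeness was the root-mean-square difference of log2 signals, each gene centred on its own mean over the 4 arrays, among 15887 named genes. Nearest to Gata6 were Igfbp5, an insulin-like growth factor binding protein, at log2 0.18, Crabp1, a cellular retinoic acid binding protein, at 0.24, and Cyp26b1, an enzyme that oxidises retinoic acid, at 0.32. For Foxa1 they were Cyp26b1 at 0.08, Igfbp5 at 0.23 and the Ras exchange factor Rasgrp3 at 0.24. For Ttr they were the receptor tyrosine kinase gene Ret at 0.09, the adhesion gene Alcam at 0.13 and the chemokine gene Cxcl15 at 0.14. Gata6 and Foxa1 differed from each other by 0.32, as much as Gata6 from Cyp26b1, and Ttr lay 0.29 from Sox7 but 1.16 from Gata6 and 1.12 from Foxa1. These are descriptions over 4 arrays.

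**Figure D4:**
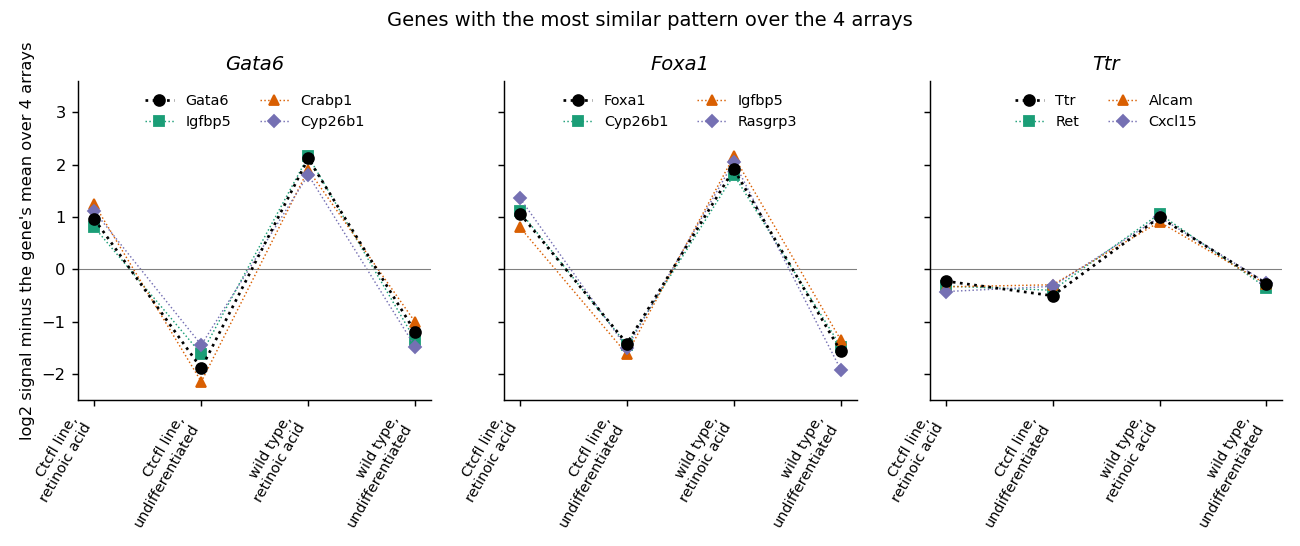
Log2 signal minus the gene's mean over the 4 arrays (vertical axis) for Gata6, Foxa1 and Ttr and the 3 genes nearest to each, on the 4 arrays (horizontal axis); dotted lines only join the points of a gene. Gata6, Foxa1 and their nearest genes are high on both retinoic acid arrays and highest in wild type, whereas Ttr, Ret, Alcam and Cxcl15 are high on the wild-type retinoic acid array alone.

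Other genes of these programmes, and of other cell types that use the same factors, were examined in 8 lists of 103 genes, of which 93 were past the filter. Among relatives and cofactors of the 9, 3 of 10 rose with retinoic acid and 0 fell in limma, beside 4.21% and 2.44% of all genes. They were Zfpm1, the FOG1 cofactor of GATA proteins, which rose 3.08-fold (adjusted p = 0.0045), Gata3, which rose 2.44-fold (adjusted p = 0.00815), and Gata5, which rose 2.18-fold (adjusted p = 0.0125). Hhex, an early foregut homeobox gene, and Onecut1, a liver factor, did not pass (adjusted p = 0.807 and 0.947).

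In the extraembryonic endoderm list, retinoic acid raised 5 of 17 genes and lowered 1 in limma, and 11 did not pass. Of all genes, 4.21% rose and 2.44% fell. Plat, the tissue plasminogen activator made by parietal endoderm, rose 3.64-fold (adjusted p = 0.00185 in limma). Krt8, a keratin of simple epithelia of many kinds, rose 2.95-fold (adjusted p = 0.00338), and Pdgfra, a growth factor receptor of primitive endoderm and mesoderm, rose 2.19-fold (adjusted p = 0.0245). The other genes that rose, named after their values were seen, were the keratin gene Krt18 and the laminin gene Lama1. The receptors Cubn, Lrp2 and Amn, which take up proteins in visceral endoderm, did not pass (adjusted p = 0.326, 0.924 and 0.27). Lamb1, Lamc1, Sparc and Thbd did not pass either, with effects of log2 -0.17, -0.11, -0.22 and -0.34. Nor did Col4a1, Col4a2, Dab2 and Pth1r, at log2 0.25, 0.29, 0.87 and 1.05. Fst, the activin antagonist, fell 5.91-fold (adjusted p = 0.00192). For the whole list the median was log2 0.36 in the Ctcfl line and 0.50 in wild-type cells, beside -0.05 and -0.04 for all genes.

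Secreted proteins and other markers of visceral endoderm and liver gave no calls with retinoic acid. Of 14 genes of this list past the filter, 0 rose and 0 fell in limma, beside 4.21% and 2.44% of all genes. At an unadjusted p of 0.05, 0 passed, beside 23.5% of all genes, and 0 were at least 2-fold apart in any of the comparisons of arrays. Afp, the fetal serum protein of yolk sac and liver, had log2 signals of 6.77 in retinoic acid and 7.01 without it in the Ctcfl line, and 7.17 in retinoic acid and 6.95 without it in wild-type cells. The albumin gene Alb lay between log2 5.78 and 6.17 on the 4 arrays. For the 14 genes the median was log2 -0.25 in the Ctcfl line and -0.10 in wild-type cells.

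Definitive endoderm and foregut genes split, with 2 of 16 that rose, 5 that fell and 9 that did not pass. Of all genes, 4.21% rose and 2.44% fell. Lhx1, a homeobox gene also used in kidney and neurons, rose 3.92-fold (adjusted p = 0.00147 in limma), and the gut endoderm proteoglycan gene Nepn rose 8.70-fold (adjusted p = 0.0334) from undifferentiated signals of log2 5.61 in the Ctcfl line, below the filter limit, and 6.15 in wild-type cells, so that this fold is not exact. Its lines were far apart: Nepn was at log2 7.25 in the Ctcfl line and 10.76 in wild-type cells in retinoic acid, and its difference of retinoic acid differences, log2 -2.97, was the lowest of the 18310 genes. Otx2, a factor of epiblast, forebrain and anterior endoderm, fell 10.7-fold (adjusted p = 0.00278) and Trh, a hormone precursor, fell 5.37-fold (adjusted p = 0.00624). The others that fell, named after their values were seen, were Eomes, a T-box factor of streak and endoderm, and the epithelial adhesion genes Cdh1 and Epcam, which pluripotent cells express as well.

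Markers of other cell types that use these factors gave few calls with retinoic acid in limma, in which 4.21% of all genes rose and 2.44% fell. In the floor plate list 1 of 9 rose, the axon guidance gene Slit2 (2.28-fold, adjusted p = 0.0284), while the floor plate signal Shh lay between log2 6.13 and 6.62 on the 4 arrays. In the heart list 0 of 11 rose or fell, and 0 passed an unadjusted p of 0.05, which 23.5% of all genes passed. Among 10 genes of endothelium and blood, where Sox7 and Sox17 also act, 1 rose, the sialomucin gene Emcn (adjusted p = 0.0285), whose undifferentiated signals of log2 4.76 in the Ctcfl line and 4.95 in wild-type cells are near the olfactory receptor medians. The endothelial receptor Kdr had 7.59 in retinoic acid and 7.48 without it in the Ctcfl line, and 8.49 in retinoic acid and 6.84 without it in wild-type cells. The endothelial cadherin Cdh5 had 6.47 in retinoic acid and 6.90 without it in the Ctcfl line, and 7.77 in retinoic acid and 6.78 without it in wild-type cells. Kdr and Cdh5 were thus high on the same array as Sox7, and whether they bear on its value was not tested. Most of their list did not share this rise. Over its 10 genes the median retinoic acid difference in wild-type cells was log2 0.11. At least 2-fold higher there were 2 of the 10, Kdr and Emcn, beside 2.58% of all genes, and Cdh5 fell just short. Emcn was highest on that array too, at log2 6.67, against 5.57 in the Ctcfl line in retinoic acid. Of 6 choroid plexus genes, where Ttr is abundant, 1 rose, the folate receptor gene Folr1 (1.88-fold, adjusted p = 0.0384), and Kl and Aqp1, which mark that tissue, lay between log2 6.25 and 6.42 and between 7.13 and 7.35 on the 4 arrays. With the line, 0 of the 93 genes of the 8 lists changed in limma, and 10 passed an unadjusted p of 0.05, a share close to the 9.81% of all genes. Between single arrays in retinoic acid, Nepn was 11.4-fold lower in the Ctcfl line than in wild type, Cdh5 2.47-fold lower and Emcn 2.15-fold lower, and Trh was 3.10-fold higher. In undifferentiated cells Eomes and the hindgut and trophoblast factor gene Cdx2 were 2.67-fold and 2.43-fold higher in the Ctcfl line, and the floor plate gene Spon1 was 2.29-fold lower. These 7 were the list genes at least 2-fold apart between the lines in either state.

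**Figure D5:**
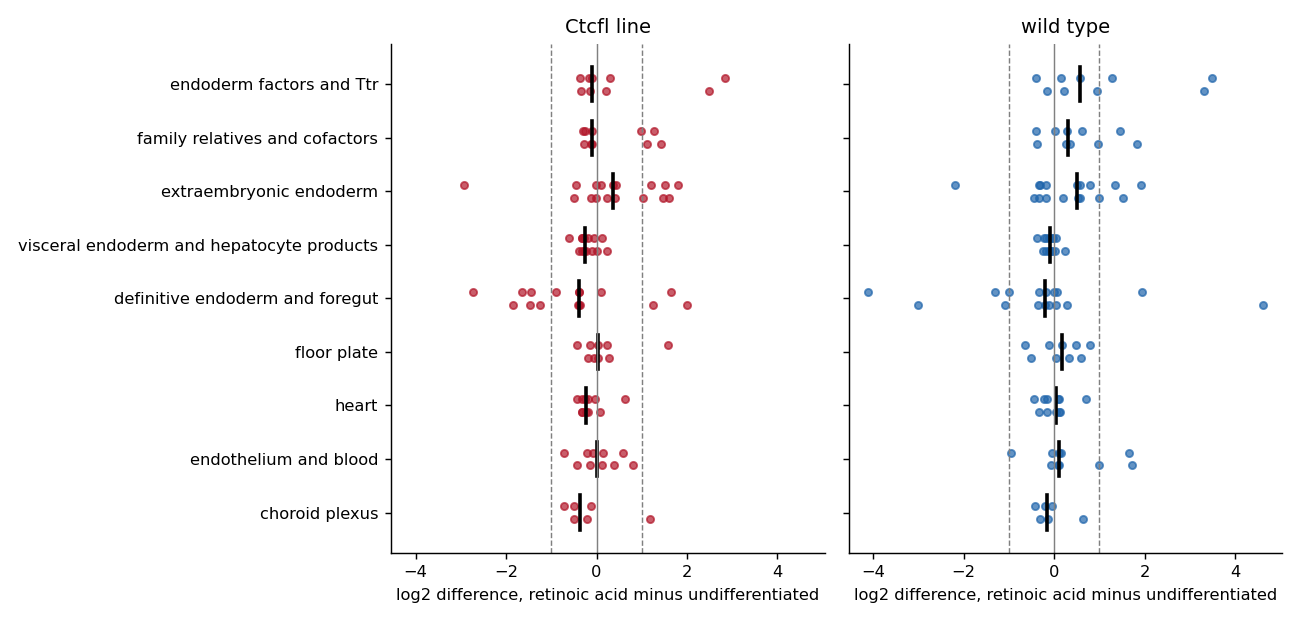
Log2 difference, retinoic acid minus undifferentiated (horizontal axis), in the Ctcfl line and in wild-type cells, of the 9 genes and of the genes past the filter in each of the 8 other lists (rows), 1 point per gene with a black bar at the median; dashed lines mark 2-fold. Visceral endoderm and heart genes stay within 2-fold in both lines, whereas Gata6 and Foxa1 stand apart at the right of the top row.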

How the data were processed

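RNA was hybridised to Affymetrix gene-level arrays as biotin-labelled cRNA, 1 array for each of 4 conditions. Per the labels, the deposited log2 signals are RMA values from Affymetrix Expression Console, and Transcriptome Analysis Console is named as well in the submitters' processing notes. Software versions and genome build are not given in the sources used here. Array medians lay between log2 6.95 and 6.96, and correlations between arrays between 0.961 and 0.985.

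Of 41345 probe sets, 23521 carried exactly 1 gene symbol in the platform annotation. Where a gene had several of these, the one highest on average was used (22180 genes), and 18310 genes reached log2 6 on at least 1 array. Log2 differences between single arrays carry no test. Averaged effects were fitted with limma 3.58.1 in R 4.3.3 (lmFit and eBayes, additive terms for retinoic acid and line, prior of 5.49 degrees of freedom), two-sided, adjusted by Benjamini-Hochberg over all 18310 genes at 0.05. The fit was also run on simulated data with additive effects and no unequal response of the lines, so that run does not test the additive assumption. The members and lists were chosen with earlier results of these data known. Genes outside the 9 were named where limma called them or they were at least 2-fold apart (at most 4 per list and comparison). Others were named as defining markers, or by likeness of pattern (3 per member). Afp, Alb, Shh, Kl, Aqp1, Hhex, Onecut1, Kdr, Cubn, Lrp2 and Amn serve as markers. Krt18, Lama1, Cdh1 and Epcam, outside the rule, were named after their values were seen, as were Pou5f1, Nanog, Tdgf1, Tshz1 and Hoxa5. The same holds for Lamb1, Lamc1, Sparc, Thbd, Col4a1 and Col4a2. Alternatives were leaving the filter out or raising it to log2 7, quantile normalization, averaging probe sets, 2 other variance priors, and thresholds of 1.5-fold and 3-fold.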

Additional observations from a re-analysis of the deposited data

Results flagged for a closer look

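Several genes had differences of opposite sign in the 2 lines or the 2 states. These differences rest on single arrays and were not tested. The smaller of the 2 differences lay within the technical SD of its comparison, except for Sox7 between the states. There the difference in undifferentiated cells, log2 0.26, was about equal to that SD. With retinoic acid, Sox7 differed by log2 -0.17 in the Ctcfl line and 0.94 in wild-type cells, a difference of -1.11, and its line difference was -0.85 in retinoic acid and 0.26 in undifferentiated cells, which is the same -1.11. Foxa1 was lower in the Ctcfl line in retinoic acid (log2 -0.85) and higher in undifferentiated cells (0.15), a difference of -0.997. The other cases were small. Gata4 differed by log2 -0.36 between the retinoic acid differences of the lines, and equally between the line differences of the states, Foxa2 by -0.35 between the line differences of the states, and Sox17 by -0.25 between the retinoic acid differences of the lines. The technical SD of such a difference was log2 0.321, so that of Sox17 was within it and those of Gata4 and Foxa2 were slightly above it.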

How the results depend on the processing

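The rise of Gata6 and Foxa1 with retinoic acid passed limma under each alternative run, with adjusted p between 0.000144 and 0.000984 for Gata6 and between 0.000623 and 0.00434 for Foxa1, and no other of the 9 genes passed for retinoic acid or for the line. Quantile normalization gave 3 genes at least 2-fold lower in the difference of retinoic acid differences in place of 1, with Foxa1 at log2 -1.04 and Ttr at -1.05. It turned the retinoic acid effect of Gata4 to log2 -0.01 (adjusted p = 0.974). At 1.5-fold, 4 genes were lower in the Ctcfl line in retinoic acid in place of 2, 1 in undifferentiated cells in place of 0, and 3 in the difference of differences. At 3-fold, 0 were lower in retinoic acid and 0 in the difference of differences. The causes of changes under quantile normalization were not tested. Over all genes, the line effect had 5 genes that rose and 3 that fell, against 14 and 9 with quantile normalization and 9 and 6 with the variance prior that follows mean expression. Genes higher and lower at 2-fold, 1.5-fold and 3-fold were 588 and 274, 1647 and 1120, and 204 and 81 for retinoic acid in the Ctcfl line; 473 and 479, 1355 and 1287, and 187 and 151 in wild-type cells; 152 and 73, 624 and 361, and 27 and 21 for the line in retinoic acid; 133 and 200, 695 and 933, and 31 and 18 in undifferentiated cells; and 348 and 138, 1399 and 866, and 62 and 34 for the difference of differences. The labels give no replicate numbers, and the additive fit already compares the arrays in pairs within each line and each state. Leaving out an array leaves the additive fit no residual degree of freedom and so no test. Apart from Gata6 and Foxa1 in retinoic acid, each signal of the 9 genes was reached by some olfactory receptor genes, up to 6.71% of them for Sox7 in undifferentiated wild-type cells and, for undifferentiated cells, 3.22% for Gata6 in the Ctcfl line and 2.76% for Foxa1 in wild type. Small changes may therefore not be detectable, and the folds of Gata6 and Foxa1 rest on such signals.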
